A study of Mus musculus with 9 samples.

Results

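The genes of the proteasome subunits and of its activators were followed in the gastrocnemius muscle of the calf in a study of ginkgolide B (GB) in female mice. Members were the genes whose symbol is Psma, Psmb, Psmc, Psmd or Psme followed by a number, with at least 30 counts summed over the 9 libraries. They numbered 41 of the 56791 genes in the deposited count table. A further 2 matching symbols fell under the minimum: Psma8, a subunit known from the testis, had 14 counts in all, and Psmb11, known from the thymus, had 0. The members just above it were Psmb9 with 2302 and Psmb8 with 2894 counts in all, and all 41 passed the filter on low counts.

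RNA sequencing covered 3 groups of 3 libraries, aged mice given GB, aged mice given vehicle and young mice given vehicle. GB, a terpene lactone of the ginkgo tree, was given at 12 mg per kg, the vehicle was saline, and all 3 groups received daily oral gavage for 2 months, per the labels. The titles give 23 months for aged vehicle and 3 months for young vehicle mice, and they give no age for the GB mice. The labels name no mutation or transgene, and nothing in them says whether each library is its own animal. P-values therefore measure only how these libraries vary, a spread that may be technical.

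The proteasome degrades proteins that carry chains of ubiquitin. Its core particle is a barrel of outer alpha and inner beta rings with the cutting sites inside, and the regulatory particle on its ends, built of a base and a lid, binds, unfolds and threads in the substrate. In immune cells and under interferon gamma the 3 catalytic beta subunits are replaced by immunoproteasome subunits, and in skeletal muscle the ubiquitin-proteasome system carries much of the breakdown of contractile proteins in wasting. By role, the members were 7 alpha subunits, 7 constitutive beta subunits, 3 immunoproteasome beta subunits, 6 base ATPases, 3 other base subunits (the scaffolds Psmd1 and Psmd2 and the ubiquitin receptor Psmd4), 8 lid subunits, 3 chaperones of base assembly and 4 activators.

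Total counts were 39478427 to 44294097 in aged GB, 52068522 to 54095457 in aged vehicle libraries and 51543383 to 61680520 in those of young vehicle. The members together took 0.329 to 0.358% of counts in aged GB, 0.375 to 0.387% in aged vehicle libraries and 0.330 to 0.363% in those of young vehicle. The GB libraries stood apart from all others: mitochondrially encoded genes took 24.3 to 26.1% of their counts, against 13.9 to 15.3% in aged vehicle libraries and 8.60 to 10.2% in those of young vehicle. The number of genes detected was 18678 to 19362 in aged GB, 22868 to 23045 in aged vehicle libraries and 22616 to 24185 in those of young vehicle. No batch is labelled, and the treatment and the preparation of the GB libraries cannot be told apart. Young vehicle replicate 1 stood apart in B cell markers, with 1234 counts of Cd79a against 4 and 4 in the other young libraries. The 10 skeletal muscle markers checked were detected in every group, at a summed 162318 to 186435 CPM in aged GB, 101588 to 111896 CPM in aged vehicle libraries and 128325 to 140674 CPM in those of young vehicle. With GB 5 of them rose and 2 fell on the TMM scale, where 24.4% of all genes tested were called higher and 28.8% lower. Named after their values were seen, Des, Mylpf and Tnni2 rose by 1.55, 1.76 and 1.63 on the log2 scale, and the fast myosin gene Myh1, which may share reads with close relatives, had a log2 fold change of -4.20. Markers of other cells differed too: the summed level of 6 endothelial markers was 252 to 287 CPM in aged GB, 513 to 519 CPM in aged vehicle libraries and 341 to 356 CPM in those of young vehicle, and that of 6 fibroblast markers 488 to 635 CPM, 780 to 1012 CPM and 946 to 2060 CPM in the same order. Beside the same shares of all genes, 1 of the 6 endothelial markers rose and 4 fell with GB on the TMM scale. Of the 6 fibroblast markers 0 rose and 5 fell. The part of all these markers in the results below was not tested.

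Promoter sequences are shown for 4 members whose levels carry the results below: the scaffold Psmd1, which fell with GB, the ubiquitin receptor Psmd4, which rose, the catalytic subunit Psmb5 and its immunoproteasome replacement Psmb8. Each runs from 250 bases before to 50 bases after the gene start in RefSeq on GRCm38.p6 and is written on the strand of the gene. The spans are chr1:86064369-86064668 (plus strand) for Psmd1, chr3:95042565-95042864 (minus strand) for Psmd4, chr14:54617946-54618245 (minus strand) for Psmb5 and chr17:34197945-34198244 (plus strand) for Psmb8. Capitals mark matches on either strand to the letters searched: TATAAA in Psmd1 and Psmb8, CCAAT and an interferon stimulated response element in Psmd4, the antioxidant response element core TGACNNNGC in Psmb5, and the gamma interferon activated site TTCNNNGAA in Psmb8. The response element to interferon was read as 2 runs of GAAA with any 2 bases between them.
Psmd1: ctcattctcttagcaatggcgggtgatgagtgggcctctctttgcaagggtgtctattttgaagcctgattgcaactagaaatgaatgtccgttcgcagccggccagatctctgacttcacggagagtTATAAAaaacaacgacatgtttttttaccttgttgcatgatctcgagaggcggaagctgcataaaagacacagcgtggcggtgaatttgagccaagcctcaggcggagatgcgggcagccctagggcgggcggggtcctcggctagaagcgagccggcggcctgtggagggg
Psmd4: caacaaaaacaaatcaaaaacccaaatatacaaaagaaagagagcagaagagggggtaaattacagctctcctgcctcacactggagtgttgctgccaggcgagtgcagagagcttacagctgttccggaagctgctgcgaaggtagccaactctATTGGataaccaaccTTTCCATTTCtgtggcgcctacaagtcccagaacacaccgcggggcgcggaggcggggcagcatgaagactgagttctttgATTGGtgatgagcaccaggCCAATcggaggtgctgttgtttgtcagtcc
Psmb5: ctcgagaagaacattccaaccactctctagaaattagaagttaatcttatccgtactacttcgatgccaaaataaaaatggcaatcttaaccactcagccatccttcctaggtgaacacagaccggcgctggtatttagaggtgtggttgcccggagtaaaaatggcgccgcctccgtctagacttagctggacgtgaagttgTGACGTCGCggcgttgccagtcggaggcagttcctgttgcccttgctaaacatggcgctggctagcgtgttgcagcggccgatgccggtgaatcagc
Psmb8: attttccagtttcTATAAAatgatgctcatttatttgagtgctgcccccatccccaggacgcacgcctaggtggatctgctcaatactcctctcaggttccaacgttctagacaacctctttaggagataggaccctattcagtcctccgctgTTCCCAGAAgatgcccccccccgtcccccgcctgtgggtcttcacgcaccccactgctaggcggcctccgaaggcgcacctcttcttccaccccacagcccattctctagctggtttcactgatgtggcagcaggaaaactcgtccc
Of the 41 members, 35 had a promoter in the RefSeq table. TGACNNNGC was found in 6 of them (17.1%), among them Psmb5 and Psmb6, against 14.0% of the promoters of all 27025 genes in the table. CCAAT was found in 13 members (37.1%, against 41.1% of all genes) and TATAAA in 4 (11.4% against 15.7%). The interferon stimulated response element was found in 4 members, Psmb3, Psmd4, Psmd9 and Psme1 (11.4% against 3.99%), and TTCNNNGAA in 2, Psmb8 and Psmd2 (5.71% against 9.55%). No 2 of these letter patterns overlapped in the 4 sequences shown, and a match is a description of letters, not a site shown to be used.

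The series compared aged GB with aged vehicle muscle. Levels are CPM, counts relative to a library size scaled by TMM, which assumes that most genes do not differ, and calls are genes with an edgeR quasi-likelihood adjusted p under 0.05 over all 17534 genes tested. On this scale 25 of the 41 members rose with GB and 4 fell, where 24.4% of all genes tested were called higher and 28.8% lower. The median log2 fold change was 0.45 over the members and -0.05 over all genes. The count of rises depended on the scale: against library totals 10 members were called higher and 18 lower (11.6% and 48.0% of all genes), and with an offset for gene length 17 were called higher and 12 lower (20.5% and 26.4% of all genes). The same 12 members were called in 1 direction in the 21 refits run, which covered other scalings, filters, tools and left-out libraries. They were Psma7, Psmb1, Psmb6, Psmb8, Psmb10, Psmd4, Psmd8 and Psme2, all higher, and Psmb7, Psmd1, Psmd11 and Psme4, all lower. Of these, Psmb6, Psmb10, Psme2, Psmd11 and Psme4 kept their calls with the length offset at smaller values (0.48, 0.60, 0.51, -0.35 and -0.58 in that order). Among the others, Psma7, Psmb8, Psmd4 and Psmd1 were also smaller in size there (1.03, 1.47, 1.13 and -1.40). Psmb1 and Psmb7 were larger in size (1.03 and -1.68).

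**Figure D1:**
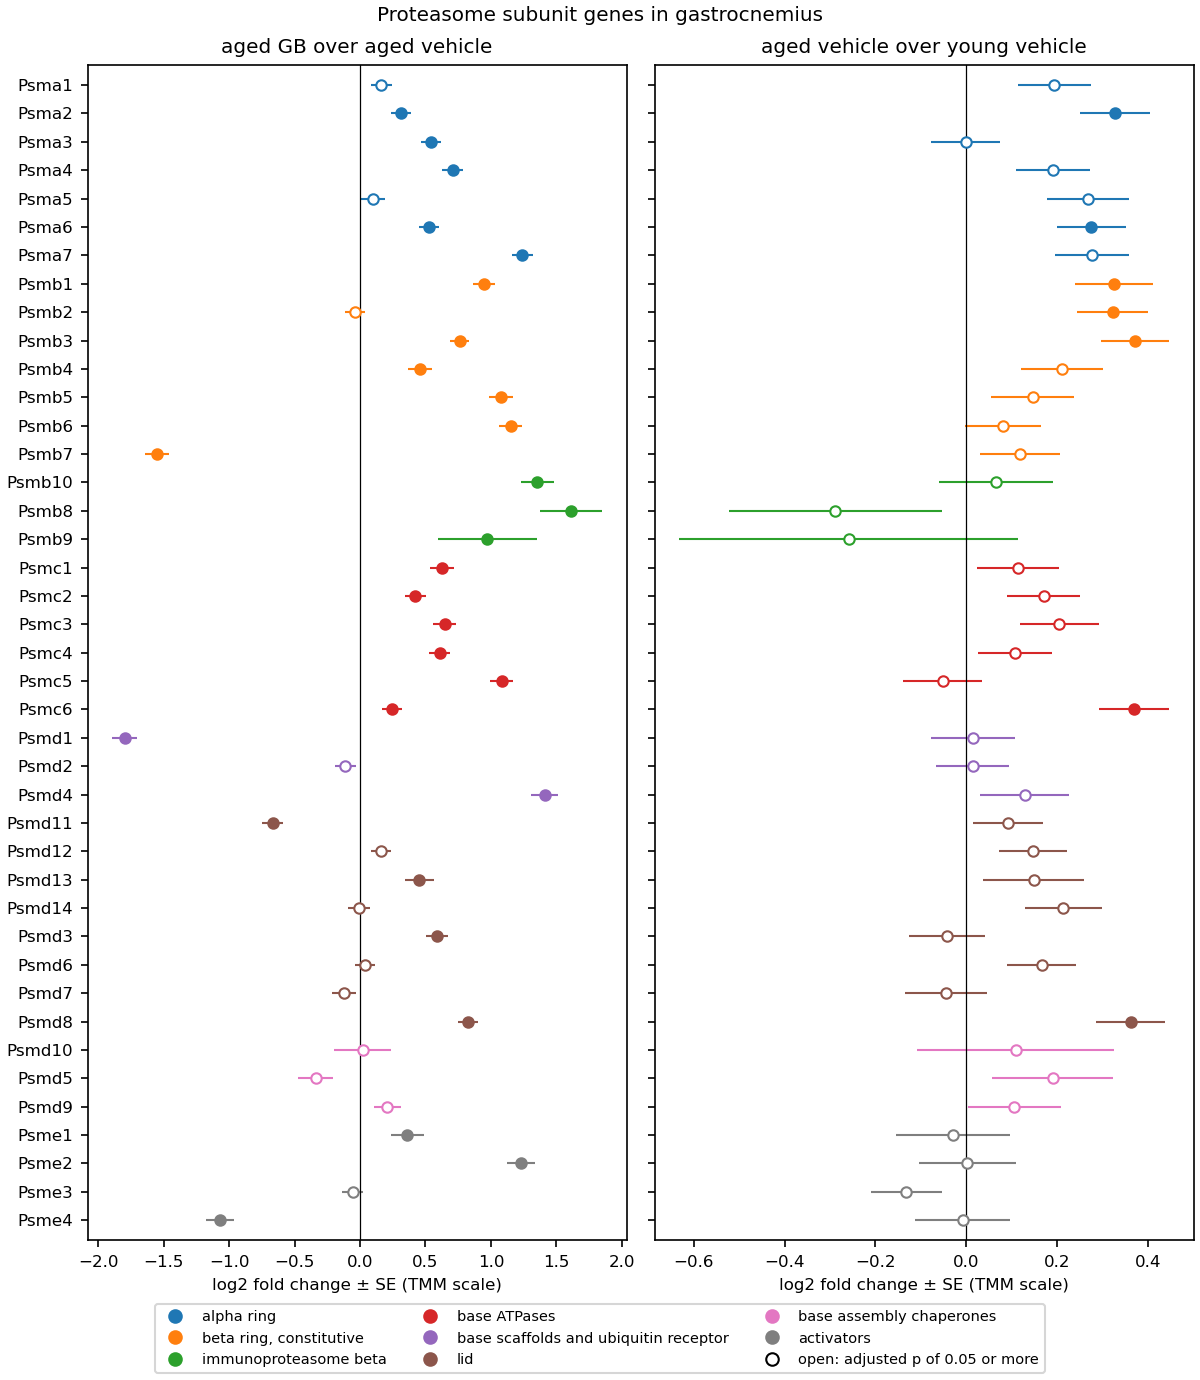
Log2 fold change (horizontal axis, with its standard error as a bar) of each of the 41 members, grouped by role from top to bottom. The left panel gives aged GB over aged vehicle, with values from -1.80 for Psmd1 to 1.61 for Psmb8, and the right panel aged vehicle over young vehicle, with values from -0.29 for Psmb8 to 0.37 for Psmb3. Filled points passed an edgeR adjusted p of 0.05 on the TMM scale.

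Over all genes the median log2 fold change was -0.05 on the TMM scale, -0.62 against library totals and -0.08 with the length offset, beside 0.45, -0.11 and 0.07 for the members. On each of these scales the members' median lay above that of all genes. Values in the text are on the TMM scale unless another is named.

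**Figure D2:**
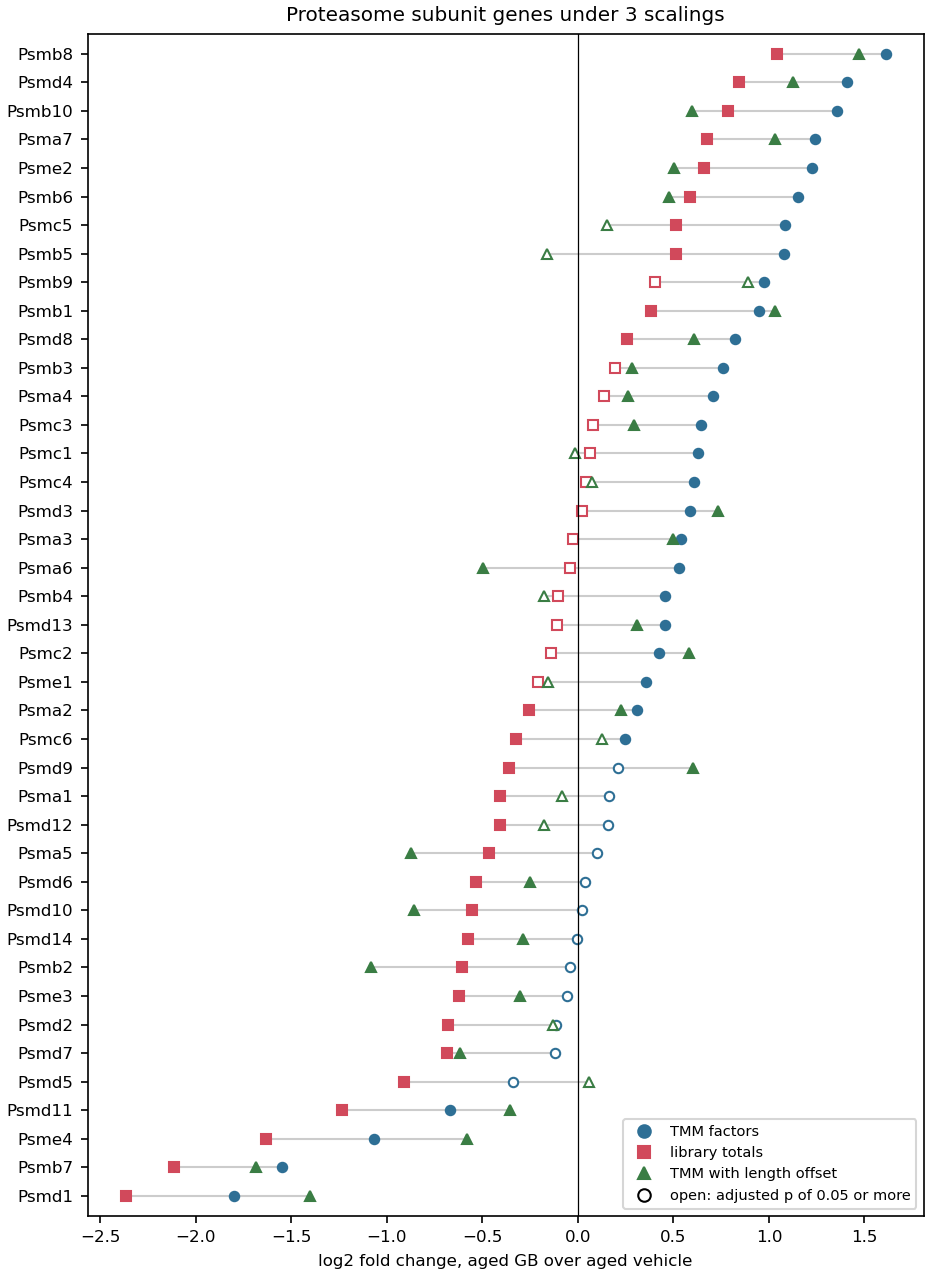
Log2 fold change of aged GB over aged vehicle (horizontal axis) of the 41 members, 1 row each, under TMM (circles), library totals (squares) and an offset for gene length (triangles). Filled markers passed an edgeR adjusted p of 0.05. The medians of the members are 0.45, -0.11 and 0.07, and the 8 members called higher and 4 called lower on each scale keep their side of 0.

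The alpha ring forms the gate of the core particle. With GB 5 of its 7 subunits rose and 0 fell on the TMM scale, but against library totals 1 rose and 3 fell. Beside this and the counts by role that follow stand 24.4% of all genes called higher and 28.8% lower on the TMM scale. The shares were 11.6% and 48.0% against library totals, and 20.5% and 26.4% with the length offset. Psma7 had 191, 195 and 184 CPM in aged GB, 84.1, 77.7 and 79.2 CPM in aged vehicle and 71.4, 66.6 and 61.0 CPM in young vehicle libraries. The GB libraries lay above all others, and the log2 fold change over aged vehicle was 1.24 (edgeR adjusted p = 8.66e-08, SE 0.08). At the other end, Psma5 had 39.9, 42.0 and 38.0 CPM in aged GB, 39.0, 34.8 and 38.1 CPM in aged vehicle and 32.0, 32.0 and 29.0 CPM in young vehicle libraries. Its aged GB and aged vehicle libraries overlapped, the log2 fold change was 0.10 (edgeR adjusted p = 0.377, SE 0.09) and it was called lower against library totals (-0.47) and with the length offset (-0.87). Reads of a copy of this gene, Psma5-ps, numbered 21 to 34 in aged GB, 140 to 176 in aged vehicle libraries and 95 to 172 in those of young vehicle, and the counting of reads shared by both is not given.

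Among the 7 constitutive beta subunits 5 rose and 1 fell with GB, and 3 rose and 2 fell against library totals. The 3 that carry the cutting sites went different ways. Psmb6, which cuts after acidic residues, had 230.4, 228 and 213 CPM in aged GB, 111, 94.5 and 96.5 CPM in aged vehicle and 93.0, 100.5 and 92.1 CPM in young vehicle libraries. Psmb5, which cuts after hydrophobic residues, had 147, 124 and 125 CPM in aged GB, 65.6, 58.4 and 63.4 CPM in aged vehicle and 53.6, 59.9 and 55.9 CPM in young vehicle libraries. Psmb7, which cuts after basic residues, had 38.2, 33.3 and 36.8 CPM in aged GB, 115, 101 and 101 CPM in aged vehicle and 97.7, 103 and 91.9 CPM in young vehicle libraries. For each of these genes the GB libraries stood clear of all 6 vehicle libraries, above them for Psmb6 and Psmb5 and below them for Psmb7.

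Over aged vehicle the log2 fold change was 1.15 (edgeR adjusted p = 2.35e-07, SE 0.09) for Psmb6 and -1.55 (edgeR adjusted p = 3.25e-08, SE 0.09) for Psmb7. For Psmb5 it was 1.08 (edgeR adjusted p = 8.40e-07, SE 0.09), but -0.16 with the offset for gene length, so its direction depended on the scale. Psmb1, a beta subunit with no cutting site, had 193, 171 and 167 CPM in aged GB libraries, against 96.4, 91.3 and 88.3 CPM in aged vehicle libraries, and its log2 fold change was 0.95 (edgeR adjusted p = 1.47e-06, SE 0.09). The smallest change was that of Psmb2, at -0.04 with overlapping libraries on the TMM scale, but it was called lower against library totals (-0.60) and with the length offset (-1.08).

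Exons of Psmb7 overlap those of Nek6, a kinase gene on the opposite strand, in the GRCm38 annotation. Whether the authors counted by strand is not given in the sources used here, so reads of the shared stretch cannot be told apart. Nek6 had 29.5, 35.6 and 35.7 CPM in aged GB, 14.1, 14.4 and 12.3 CPM in aged vehicle and 7.15, 7.53 and 7.71 CPM in young vehicle libraries, and its GB libraries lay above the others where those of Psmb7 lay below. In all, 12 members overlap an exon of another gene and 7 overlap one of a protein-coding gene, among them Psmb9 with Tap1. Psmd1 overlaps Htr2b on the opposite strand (under 1 CPM in every library) and Gm21972 on its own strand. Gm21972 had 0 counts in every library, and how the authors treated reads that fall on both genes is not given.

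**Figure D3:**
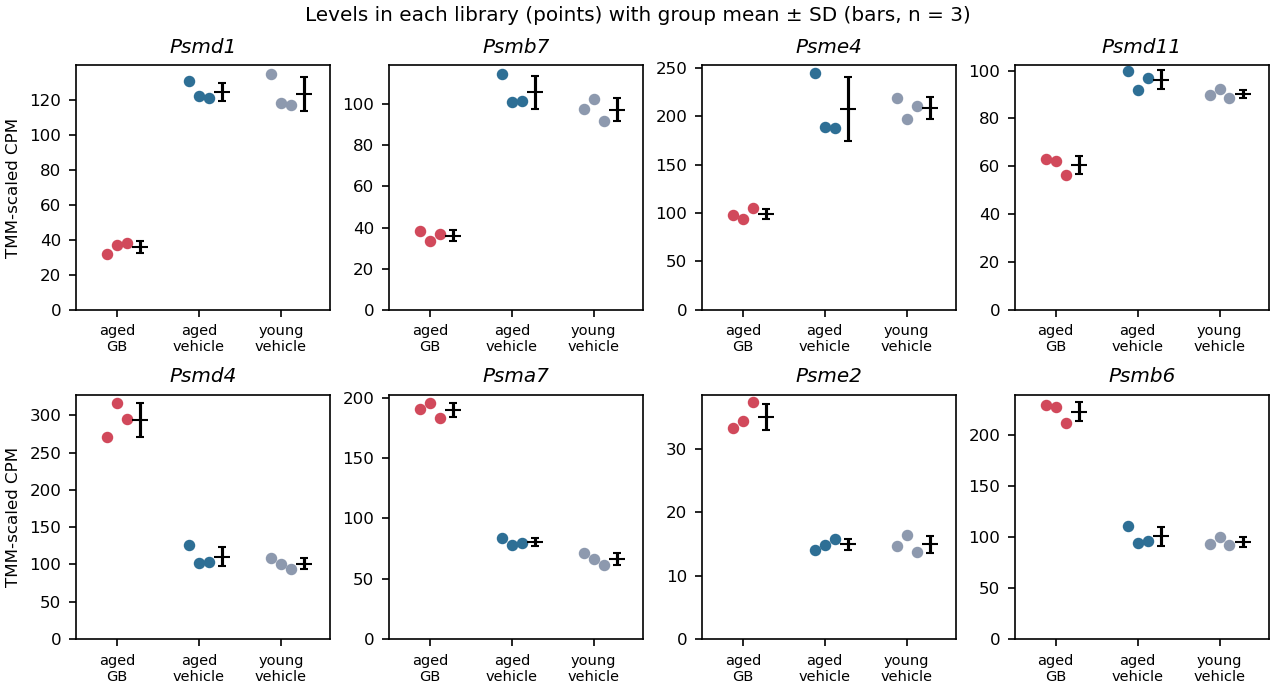
Level of 8 members in each library, in TMM-scaled CPM (vertical axes from 0), with the mean and SD of the 3 libraries per group; aged GB stands left, then aged vehicle, then young vehicle. Psmd1, Psmb7, Psme4 and Psmd11 are lower and Psmd4, Psma7, Psme2 and Psmb6 higher in every GB library than in any vehicle library.

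The immunoproteasome subunits Psmb8, Psmb9 and Psmb10, which take the places of Psmb5, Psmb6 and Psmb7, were the least abundant members of the core per kilobase in both vehicle groups. All 3 rose with GB on the TMM scale and 2 of them, Psmb8 and Psmb10, also against library totals. Psmb8 had 14.7, 12.1 and 10.4 CPM in aged GB, 3.18, 4.09 and 4.91 CPM in aged vehicle and 6.18, 5.21 and 3.51 CPM in young vehicle libraries. Psmb10 had 32.0, 32.8 and 26.9 CPM in aged GB, 10.6, 12.4 and 12.8 CPM in aged vehicle and 12.5, 11.1 and 10.6 CPM in young vehicle libraries. The GB libraries of both genes lay above all 6 vehicle libraries, with log2 fold changes over aged vehicle of 1.61 (edgeR adjusted p = 9.49e-05, SE 0.24) for Psmb8 and 1.36 (edgeR adjusted p = 1.87e-06, SE 0.13) for Psmb10. Psmb9 had 10.7, 5.94 and 5.66 CPM in aged GB, 1.99, 4.64 and 4.73 CPM in aged vehicle and 6.46, 3.31 and 3.83 CPM in young vehicle libraries. Its GB libraries lay above the aged but not above all young vehicle libraries. Its log2 fold change over aged vehicle was 0.97 (edgeR adjusted p = 0.0473, SE 0.38), a call made in 8 of the 21 refits.

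Immune cells express these 3 genes strongly, and in bulk RNA fewer cells of a type and less RNA per cell cannot be told apart. The summed level of 24 leukocyte markers was 262 to 413 CPM in aged GB, 289 to 343 CPM in aged vehicle libraries and 287 to 538 CPM in those of young vehicle, with no marker at 0 in any group. With GB 1 of the 22 markers tested rose and 3 fell, where 24.4% of all genes tested were called higher and 28.8% lower. The T cell gene Cd3e rose (log2 fold change 2.30), and the macrophage genes Adgre1, Csf1r and Mrc1 fell, by 1.89, 0.85 and 1.05 on the log2 scale. In raw counts the general leukocyte gene Ptprc had 40, 74 and 84 in aged GB and 201, 272 and 345 in aged vehicle libraries. Young vehicle libraries had 1669, 278 and 365, the first being the library with the B cell markers. Total counts were also lower in aged GB. The summed level of the 3 immunoproteasome genes was 43.0 to 57.5 CPM in aged GB, 15.8 to 22.4 CPM in aged vehicle libraries and 17.9 to 25.2 CPM in those of young vehicle. The part of either marker set in this difference was not tested.

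Ratios between 2 genes of 1 library do not depend on how libraries are scaled, but they carry any effect of gene length. They were taken per length, as log2 of CPM per kilobase, for the 3 replacement pairs, and 5 more ratios were chosen after their values were seen. With 3 against 3 libraries the smallest exact two-sided permutation p is 0.1, and over the 24 comparisons of 8 ratios the smallest adjusted value was 0.218, so none passed 0.05. The log2 ratio of Psmb10 to Psmb7 was 0.75, 0.98 and 0.55 in aged GB, -2.43, -2.02 and -1.98 in aged vehicle and -1.96, -2.20 and -2.12 in young vehicle libraries. Per length, Psmb10 was the more abundant of the pair in every GB library and Psmb7 in every vehicle library (difference of aged GB from aged vehicle 2.91, exact permutation p = 0.1). For Psmb8 to Psmb5 the means were -5.33 in aged GB, -5.87 in aged vehicle and -5.46 in young vehicle libraries, and aged GB overlapped young but not aged vehicle. For Psmb9 to Psmb6 the means were -5.94, -5.80 and -5.42 in the same order of groups, and all groups overlapped. The genes of a pair differ in length, as with Psmb8 (3381 bases) and Psmb5 (899 bases). With the length offset the log2 fold changes over aged vehicle were 1.47 for Psmb8 and -0.16 for Psmb5. Those of Psmb9 and Psmb6 were 0.89 and 0.48, and those of Psmb10 and Psmb7 0.60 and -1.68. The part of length in the ratios was not tested.

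Within the constitutive catalytic set, the log2 ratio of Psmb7 to Psmb6, one of those chosen after the values were seen, was -3.46, -3.64 and -3.40 in aged GB, -0.82, -0.78 and -0.80 in aged vehicle and -0.80, -0.84 and -0.87 in young vehicle libraries. The GB libraries did not overlap the vehicle libraries.

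**Figure D4:**
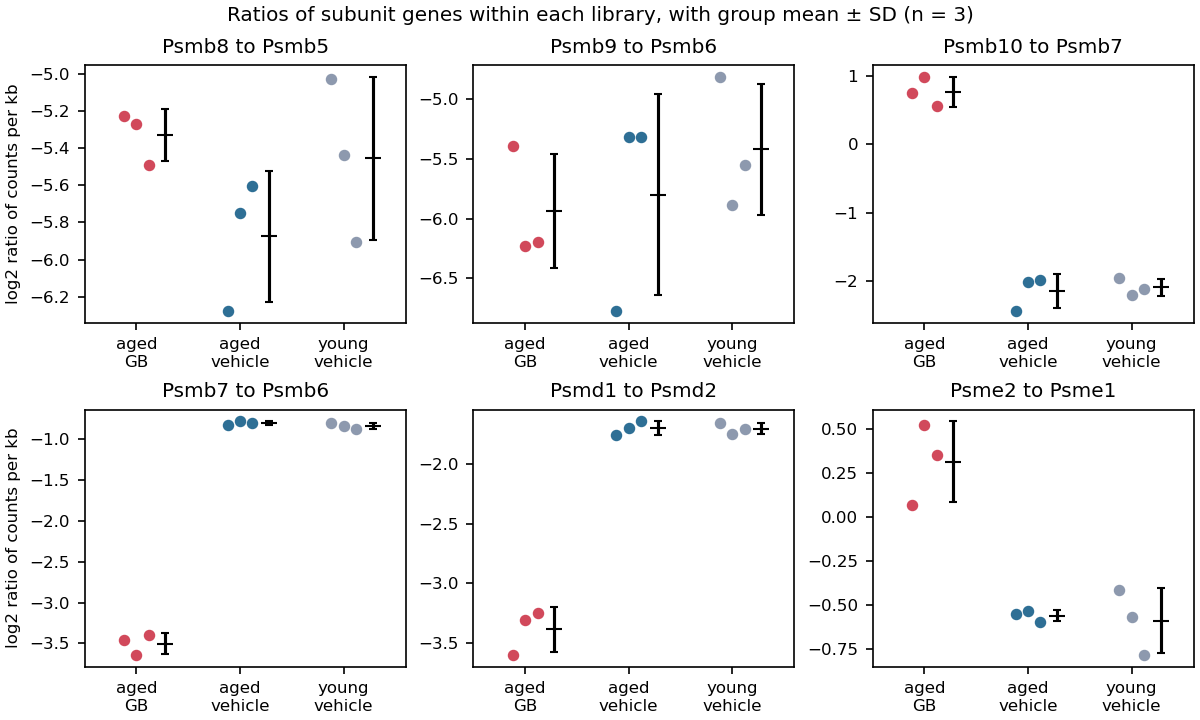
Log2 ratio of 2 genes within each library, per length (vertical axes), for 3 replacement pairs and 3 pairs chosen after their values were seen; aged GB stands left, then aged vehicle, then young vehicle, and bars give the group mean and SD of 3 libraries. GB libraries are apart from all vehicle libraries for Psmb10 to Psmb7, Psmb7 to Psmb6, Psmd1 to Psmd2 and Psme2 to Psme1, and overlap them for the other 2. The ratios carry any effect of gene length.

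The base ATPases form the ring that unfolds substrates. All 6 rose with GB on the TMM scale, but 1 rose and 1 fell against library totals and 2 rose and 0 fell with the length offset. Psmc5 rose most on the TMM scale, with 196, 218 and 211 CPM in aged GB libraries, against 107, 92.8 and 94.9 CPM in aged vehicle libraries, a log2 fold change of 1.08 (edgeR adjusted p = 5.88e-07, SE 0.09) that was 0.15 (edgeR adjusted p = 0.205) with the length offset, where Psmc2 rose most, by 0.58. Psmc6 changed least, with 116, 112 and 122 CPM in aged GB libraries, against 102, 92.0 and 102 CPM in aged vehicle libraries. Its log2 fold change was 0.24 (edgeR adjusted p = 0.0180, SE 0.08), which was -0.32 against library totals. For both genes the groups did not overlap on the TMM scale.

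The other base subunits diverged most. Psmd1, a large scaffold of the base, had 31.9, 37.3 and 38.3 CPM in aged GB, 131, 122 and 121 CPM in aged vehicle and 135, 118 and 117 CPM in young vehicle libraries. Psmd4, a receptor for ubiquitin chains, had 271, 316 and 296 CPM in aged GB, 126, 102 and 104 CPM in aged vehicle and 108, 101 and 94.5 CPM in young vehicle libraries. Psmd2, the scaffold that holds shuttle factors, had 216, 206 and 202 CPM in aged GB, 245, 219 and 209.9 CPM in aged vehicle and 235, 221 and 212 CPM in young vehicle libraries. Psmd1 was lower and Psmd4 higher in every GB library than in any vehicle library, and the groups overlapped for Psmd2. Over aged vehicle the log2 fold change was -1.80 (edgeR adjusted p = 1.52e-08, SE 0.10) for Psmd1, the largest fall of the 41 members on the TMM scale, 1.41 (edgeR adjusted p = 1.71e-07, SE 0.10) for Psmd4 and -0.11 (edgeR adjusted p = 0.258, SE 0.08) for Psmd2. With the length offset Psmd1 stood at -1.40 and Psmd4 at 1.13, and Psmb7 fell more than Psmd1, at -1.68. The log2 ratio of Psmd1 to Psmd2, chosen after the values were seen, was -3.60, -3.31 and -3.25 in aged GB, -1.75, -1.69 and -1.64 in aged vehicle and -1.65, -1.75 and -1.70 in young vehicle libraries.

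Of the 8 lid subunits 3 rose and 1 fell with GB, where 24.4% of all genes were called higher and 28.8% lower. Against library totals 1 rose and 5 fell, where 11.6% of all genes were called higher and 48.0% lower. Psmd8 had 224, 229 and 226 CPM in aged GB, 134, 118 and 132 CPM in aged vehicle and 99.7, 103 and 95.7 CPM in young vehicle libraries. Psmd11, which helps to hold the regulatory particle to the core, had 63.1, 62.1 and 56.4 CPM in aged GB, 99.7, 92.0 and 96.9 CPM in aged vehicle and 89.8, 92.3 and 88.7 CPM in young vehicle libraries. Their log2 fold changes over aged vehicle were 0.82 (edgeR adjusted p = 1.74e-06, SE 0.08) and -0.67 (edgeR adjusted p = 1.33e-05, SE 0.08) for Psmd8 and Psmd11. In both genes the GB libraries were apart from all vehicle libraries, on opposite sides. Psmd14, the enzyme that removes the ubiquitin chain, changed least, with a log2 fold change of -0.01 and overlapping libraries, but -0.57 against library totals. None of the 3 base assembly chaperones, Psmd5, Psmd9 and Psmd10, passed the test on the TMM scale. All 3 were called lower against library totals, and with the length offset Psmd9 was called higher (0.60) and Psmd10 lower (-0.86).

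The activators bind the core in place of the regulatory particle. Psme2, the partner of Psme1 in the activator that interferon gamma induces, had 33.4, 34.4 and 37.4 CPM in aged GB, 14.1, 14.9 and 15.9 CPM in aged vehicle and 14.7, 16.5 and 13.7 CPM in young vehicle libraries. In raw counts these were 1050, 1146 and 1170, then 802, 945 and 966, then 992, 949 and 953. Reads of a copy of Psme2, Psme2b, numbered 172 to 212 in aged GB, 198 to 283 in aged vehicle libraries and 255 to 444 in those of young vehicle. The counting of reads shared by both is not given. Psme1 had 39.8, 29.98 and 36.7 CPM in aged GB libraries, against 25.9, 27.0 and 30.02 CPM in aged vehicle libraries. Psme4, a nuclear activator, had 98.1, 93.9 and 105 CPM in aged GB, 245, 189 and 188 CPM in aged vehicle and 219, 197 and 211 CPM in young vehicle libraries. Psme2 lay above and Psme4 below all vehicle libraries in every GB library. Over aged vehicle the log2 fold change was 1.23 (edgeR adjusted p = 1.13e-06, SE 0.11) for Psme2 and -1.07 (edgeR adjusted p = 3.12e-06, SE 0.11) for Psme4. For Psme1, whose aged GB and aged vehicle libraries overlapped, it was 0.36 (edgeR adjusted p = 0.0295, SE 0.13), but -0.21 against library totals and -0.15 with the length offset. Psme3, a nuclear activator of other make, had a log2 fold change of -0.06 and overlapping libraries, but -0.62 against library totals. The log2 ratio of Psme2 to Psme1, chosen after the values were seen, averaged 0.32 in aged GB, -0.56 in aged vehicle and -0.59 in young vehicle libraries, and the GB libraries did not overlap the others.

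The members' levels were spread more widely in GB libraries. Per kilobase, the most abundant of the 14 constitutive core subunits exceeded the least abundant 12.9 to 14.6-fold in aged GB, 3.77 to 3.92-fold in aged vehicle libraries and 3.95 to 4.46-fold in those of young vehicle. Without Psmb7 the 13 others spanned 5.89 to 7.15-fold in aged GB, with the vehicle ranges as before. The 17 base and lid subunits spanned 28.6 to 32.0-fold in aged GB, 4.48 to 4.93-fold in aged vehicle libraries and 4.84 to 5.85-fold in those of young vehicle. Without Psmd1, the 16 others spanned 14.2 to 17.1-fold in aged GB. These spans carry any effect of gene length. In aged GB the most abundant were the short genes Psmb5 (899 bases) and Psmc5 (1394 bases), and the least abundant Psmb7 (3421 bases) and Psmd1 (7265 bases). With the length offset Psmb5 and Psmc5 stood at -0.16 and 0.15 over aged vehicle, and the part of length in the wider spans was not tested.

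As a share of all members' level per kilobase, Psmd1 averaged 0.27% in aged GB, 1.39% in aged vehicle and 1.52% in young vehicle libraries. Psmb7 averaged 0.58%, 2.50% and 2.54% in the same order, and Psme4 0.65%, 1.998% and 2.23%. Psmd4 took 5.80% in aged GB, 3.18% in aged vehicle and 3.22% in young vehicle libraries. By role, the immunoproteasome subunits took 1.31 ± 0.13% in aged GB, 0.75 ± 0.14% in aged vehicle and 0.84 ± 0.11% in young vehicle libraries, and the lid 16.3 ± 0.17%, 20.1 ± 0.27% and 20.4 ± 0.24% (SD, n = 3 each). These shares need no scaling between libraries, but they do carry any effect of gene length.

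Across the members, the log2 fold change of aged GB over aged vehicle had a Spearman correlation of -0.34 with gene length (n = 41), near the -0.35 over all 17534 genes. Its correlation with GC content was 0.62 over the members and 0.14 over the 16691 genes with a GC value. These are descriptions across genes that share the same 6 libraries. With an offset for both properties 16 members were called higher and 12 lower (20.4% and 26.4% of all genes). The part of length and GC content in the remaining differences was not tested.

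The other comparison of the series design, aged against young vehicle muscle, gave smaller differences. With age 7 of the 41 members rose and 0 fell, where 4.32% of all genes tested were called higher and 4.28% lower. The median log2 fold change was 0.13 over the members and -0.00 over all genes. Of the core, 5 of 14 subunits rose, of the base and lid 2 of 20, and of the 3 immunoproteasome subunits and the 4 activators none did. The count was also 7 with library totals (4.62% of all genes higher, 3.93% lower) and with the length offset (4.65% higher, 4.85% lower). The length offset lost Psma6 and gained Psma7 (edgeR adjusted p = 0.0549 and 0.0406). With the length and GC offset the count was 6. That setting lost Psma2, Psma6 and Psmc6 (edgeR adjusted p = 0.149, 0.0724 and 0.115) and gained Psma7 and Psmc3. With upper-quartile factors Psma6 and Psmb1 were not called.

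The 5 core subunits that rose with age were Psma2, Psma6, Psmb1, Psmb2 and Psmb3. Psmb3, with no cutting site, had 82.3, 81.9 and 82.4 CPM in aged vehicle libraries, against 65.1, 64.2 and 61.3 CPM in young vehicle libraries, a log2 fold change of 0.37 (edgeR adjusted p = 0.00866, SE 0.07). Psma2 had 71.0, 66.1 and 66.0 CPM in aged vehicle libraries, against 55.4, 55.4 and 51.2 CPM in young vehicle libraries, a log2 fold change of 0.33 (edgeR adjusted p = 0.0204, SE 0.08). Psmb2 had 54.1, 53.1 and 52.6 CPM in aged vehicle libraries, against 43.2, 43.7 and 40.9 CPM in young vehicle libraries, a log2 fold change of 0.32 (edgeR adjusted p = 0.0247, SE 0.08). Every aged library lay above every young one in these 3 genes. Psmb1 and Psma6 had log2 fold changes of 0.33 and 0.28, with edgeR adjusted p-values of 0.0342 and 0.0442.

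In the regulatory particle the ATPase Psmc6 had 102, 92.0 and 102 CPM in aged vehicle libraries, against 76.2, 74.6 and 78.4 CPM in young vehicle libraries, a log2 fold change of 0.37 (edgeR adjusted p = 0.0110, SE 0.08). The lid subunit Psmd8 had 134, 118 and 132 CPM in aged vehicle libraries, against 99.7, 103 and 95.7 CPM in young vehicle libraries, a log2 fold change of 0.36 (edgeR adjusted p = 0.0110, SE 0.08). Aged and young libraries did not overlap in either gene. These calls rested on few libraries: without 1 library at a time the count of members that rose ran between 1 and 8. It was 1 without aged vehicle replicate 3 or without young vehicle replicate 3, 2 without young vehicle replicate 2, 3 without aged vehicle replicate 1 or 2, and 5 without young vehicle replicate 1. No member was called with age in all 21 refits.

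The immunoproteasome genes did not pass the test with age, with log2 fold changes of -0.29 for Psmb8, -0.26 for Psmb9 and 0.07 for Psmb10 (edgeR adjusted p = 0.525, 0.753 and 0.824 in that order). Young vehicle replicate 1, which held the B cell markers, had the highest young levels of all 3, with Psmb9 at 6.46 CPM against 3.31 and 3.83 CPM in the other young libraries. Without it the values were -0.10, 0.09 and 0.14. The activators ran from -0.13 for Psme3 to 0.00, and Psme3 had 49.1, 49.3 and 47.6 CPM in aged vehicle libraries, against 53.0, 52.9 and 54.1 CPM in young vehicle libraries, which did not overlap but did not pass the test.

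Set against young vehicle muscle, a comparison that shares the GB libraries with the first, 30 members were higher and 4 lower with GB on the TMM scale (24.7% and 29.0% of all genes tested). Against library totals 14 were higher and 12 lower (12.1% and 48.6% of all genes), with the length offset 18 and 10 (21.2% and 27.9%), and with the length and GC offset 18 and 9 (20.9% and 27.7%). The 4 lower members were again Psmb7, Psmd1, Psmd11 and Psme4, at log2 fold changes of -1.43, -1.78, -0.58 and -1.08 over young vehicle. Psmd4 stood at 1.54, Psmb8 at 1.32 and Psme2 at 1.23. Psmb10 stood at 1.42, and for each of these genes the GB libraries did not overlap the young vehicle libraries.

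Other genes of the pathway were taken from lists of partners and regulators. Of 21 further subunits, assembly factors and partners, 12 rose and 4 fell with GB, and 7 rose and 11 fell against library totals. Beside these GB counts, and those of the lists that follow, stand 24.4% of all genes called higher and 28.8% lower on the TMM scale. The shares were 11.6% and 48.0% against library totals, and 20.5% and 26.4% with the length offset. Pomp, which assists maturation of the core, had 136, 137 and 129.7 CPM in aged GB libraries, against 64.4, 55.0 and 59.1 CPM in aged vehicle libraries, a log2 fold change of 1.17. Sem1, a small lid subunit outside the naming pattern, rose by 1.20 on the log2 scale and Zfand5, a protein that stimulates the proteasome, by 0.96. With age 1 of these 21 rose, Zfand5, and 1 fell, Ubqln4, at log2 fold changes of 0.32 and -0.33. Beside this and the age calls of the lists that follow stand 4.32% of all genes called higher with age and 4.28% lower. The call of Zfand5 was lost with the length offset (0.26, edgeR adjusted p = 0.0745).

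Of 9 regulators of proteasome genes, 0 rose and 6 fell with GB, and with the length offset 0 rose and 4 fell. Nfe2l1, the transcription factor that raises subunit genes when the proteasome is impaired, had 379, 372 and 357 CPM in aged GB, 713, 641 and 699.9 CPM in aged vehicle and 758, 767 and 741 CPM in young vehicle libraries. Every GB library lay below every vehicle library, with a log2 fold change over aged vehicle of -0.89 (edgeR adjusted p = 4.19e-07, SE 0.07). Ddi2, the protease that activates it, stood at -0.57 on the TMM scale and 0.08 with offsets for length and GC content. Stat3 and Foxo3 fell, with log2 fold changes of -0.95 and -0.94 on the TMM scale and -0.39 and -0.51 with the length offset. With age Foxo3, a driver of muscle wasting genes, rose and Foxo4 fell, with log2 fold changes of 0.77 and -0.49.

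Of 6 ubiquitin and E1 genes 3 rose and 2 fell with GB, and 0 were called with age. Among those that rose were the ubiquitin genes Rps27a, fused to a ribosomal protein, and Ubb, by 1.89 and 0.95 on the log2 scale. With the length offset Ubb was at 0.17 and did not pass the test (edgeR adjusted p = 0.0599). Their values are uncertain where the counting split reads between them and near-identical copies. The E1 gene Uba6 fell, with a log2 fold change of -1.49. Of 22 genes of class I antigen presentation and interferon signalling, 10 rose and 2 fell with GB, but 3 rose and 5 fell against library totals. B2m, the light chain of class I molecules, had 302, 211 and 227 CPM in aged GB libraries, against 107, 106 and 133 CPM in aged vehicle libraries, a log2 fold change of 1.10 that was -0.17 with the length offset. Ifit1, which interferons induce, rose by 1.58 on the log2 scale. Erap1, a peptidase that trims peptides for class I molecules, fell on the TMM scale, with a log2 fold change of -0.70, but was at -0.31 with the length offset (edgeR adjusted p = 0.0669), where 5 of the 22 genes were called higher and 0 lower. With age 1 rose, the receptor gene Ifngr1 at 0.73, and 1 fell, Ifngr2 at -0.48.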

How the data were processed

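A KAPA mRNA kit made the libraries, per the labels' protocols. The authors deposited raw counts per gene for 9 libraries, with a gene length column. FastQC, HISAT2, SAMtools and DESeq2 are named without versions in the submitters' processing notes, beside the builds GRCm39 and mm10 with no role. Read counter, annotation and strand setting are not given in the sources. Groups and replicate numbers came from the titles. Every pair of replicates differed beyond sampling noise and was kept apart.

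From the deposited counts, genes were kept with filterByExpr in edgeR 4.0.16 (R 4.3.3; minimum count 10, minimum total count 15). Libraries were scaled with TMM, and all 9 libraries entered 1 robust quasi-likelihood fit with group means. Two-sided p-values were adjusted by the Benjamini-Hochberg method over 17534 genes and called under 0.05. Each SE is the absolute log2 fold change over the square root of F. Levels per kilobase used the deposited length. The procedure was tested on simulated counts in which only a small part of the genes was changed and gene length had no effect. That test cannot show how TMM scaling behaves where many genes differ, as with GB. Alternatives were RLE factors, upper-quartile factors, library totals, other filters, DESeq2 1.42.0, limma-voom (limma 3.58.1), a fit that is not robust, fits without the third group, a replicate block, offsets for length or for length and GC content (lowess, span 0.3), other thresholds and leaving out each library.

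The members and gene lists were chosen with earlier results of these data known. Genes named were, per role, those with the largest and smallest change with GB and the smallest p with age, with Psmb5 to Psmb10, Psmd4, all Psme genes and Nfe2l1 in any case, and up to 4 called genes of other lists with GB and up to 2 with age. Members named besides, among them Psmb1, Psmb3, Psmd8 and Psma6, had been called with age or in all refits. Nek6, Cd79a, Ptprc, the muscle and macrophage genes and the copies were named after their values were seen. A few of the genes chosen this way are not reported. Promoters and motif counts came from RefSeq on GRCm38.p6, and exon overlaps from an annotation of GRCm38. It is not given which build was counted on, and no coordinate comes from the deposited table. Precision is limited by 3 libraries per group, and ranges cover the spread between them.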

Additional observations from a re-analysis of the deposited data

How the results depend on the processing

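The calls of the 12 members listed as held in all refits did not depend on the settings tried. For the count of members with GB over aged vehicle (25 higher, 4 lower), library totals gave 10 higher and 18 lower, the length offset 12 lower, and the length and GC offset 16 higher and 12 lower. Over young vehicle (30 higher, 4 lower), library totals gave 14 and 12, the length offset 18 and 10, and the length and GC offset 18 and 9. By construction these settings move the zero point of every gene of a given length or library. With age, 7 members rose in the reported fit, 6 with the length and GC offset, 1 at an adjusted p under 0.01 and 0 with an absolute log2 fold change of at least 0.58. Leaving out 1 library at a time gave 1 to 8. All genes called with age numbered 1508, against 2410 in DESeq2, 650 at an adjusted p under 0.01, 966 with the fold threshold and 749 to 2010 with 1 library left out. The cause of these shifts was not tested.

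The log2 fold change of GB over aged vehicle turned its sign in 14 of the 41 members against library totals, 11 with the length offset and 11 with the length and GC offset. Of these, 8, 5 and 5 in the same order were called on the TMM scale. Among the genes whose values the report gives, the turns against library totals were Psma2 (-0.26), Psma5 (-0.47), Psma6 (-0.040), Psmc6 (-0.32), Psmd10 (-0.56) and Psme1 (-0.21). With the length offset the named genes that turned were Psma5 (-0.87), Psma6 (-0.50), Psmb5 (-0.16), Psmd10 (-0.86), Psmd5 (0.058), Psme1 (-0.15) and B2m (-0.17). With the length and GC offset the named ones were Psma5 (-0.79), Psma6 (-0.41), Psmb5 (-0.23), Psmc6 (-0.072), Psmd10 (-0.86), Psmd5 (0.12), Psme1 (-0.21), B2m (-0.20) and Ddi2 (0.083). The other members that turned were Psma1, Psmb4, Psmd6 and Psmd12 with each of these 3 settings, Psma3, Psmc2, Psmd9 and Psmd13 against library totals, and Psmc1 with the length offset. Among named genes, upper-quartile factors turned Psmb2 (0.052), Psmd14 (0.084) and Psme3 (0.034), and a filter of 1 CPM in 3 libraries Psmb2 (0.0068) and Psmd14 (0.039). Psmd10 also turned without the filter (-0.011) and with limma-voom (-0.033). With 1 library left out, Psmd10 ran from -0.30 to 0.17 and Psmd14 from -0.055 to 0.0088, and with age Psmb9 ran from -0.45 to 0.086. Differences in log2 ratios that crossed 0 in the same way were Psmb9 to Psmb6 with GB over aged vehicle (-0.62 to 0.11) and with age (-0.62 to 0.10), Psmb8 to Psmb5 with GB over young vehicle (-0.10 to 0.34) and Psmb10 to Psmb7 with age (-0.13 to 0.092).

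Deviations of same-numbered libraries from the group means correlated between -0.076 and 0.080, and not every library correlated best with its own number. In each group replicates 2 and 3 were the closest pair, at a chi-square per degree of freedom of 17.9, 16.6 and 18.7 (aged GB, aged vehicle, young vehicle). Pairs with replicate 1 ran from 33.5 to 60.4. Correlations show only deviations in a shared direction, and whether same-numbered libraries were handled together was not tested. With the replicate number as a block, 24 members were higher and 4 lower with GB over aged vehicle, 28 and 4 with GB over young vehicle, and 6 and 0 with age, and Psmd10 stood at -0.0089. Genes called under the block numbered 8958, 9025 and 1312 in the same order.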
